A study of Mus musculus with 2 samples.

Results

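The genes described here are 41 genes of the cell cycle and DNA replication, taken by symbol from a fixed list of names among 55536 annotated mouse genes, of which 22028 are protein-coding. They were 15 genes of S phase and of the entry into it, 21 genes of the G2/M transition and mitosis, and 5 D-type cyclins and inhibitors of cyclin-dependent kinases (CDKs). The rule for choosing them names symbols and uses no measured value, and the list was drawn up with earlier results of these data known. All 41 were found in the gene table.

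Total RNA-seq after depletion of ribosomal RNA had been done on 2 libraries, biological replicates 1 and 2, that form a single group. The cells were macrophages of C57BL/6J mice, grown from bone marrow per the label BMDM and given 100 ng/ml of lipid A, the membrane anchor of bacterial lipopolysaccharide and the ligand of the receptor TLR4, for 25 min. A description in the labels names the fraction nucleoplasmic and another field calls it nuclear. Sex and age had not been collected, both libraries carry the same donor entry, and the RNA input was 500 ng for replicate 1 and 1 µg for replicate 2. Untreated cells were not analysed here, so the values are levels in treated nuclei, no response to lipid A was measured, and no test between groups was possible. The SD over the 2 libraries measures only the spread between them, which may be technical.

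A cell that is to divide first passes from G1 into S phase, where cyclin E and the E2F factors drive the genes that license origins, unwind DNA and make deoxynucleotides. A later wave of genes, driven through CHR elements and CCAAT boxes in their promoters, builds the spindle and carries out mitosis. D-type cyclins start the sequence by binding Cdk4 and Cdk6, and the inhibitors p21 (Cdkn1a) and p27 (Cdkn1b) hold it back. Bone marrow cells divide while they mature in culture with a growth factor, and lipopolysaccharide is known to stop the division of macrophages.

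The gene table held 13506939 expected counts in replicate 1 and 17932332 in replicate 2. An expected count is the number of reads that the quantifier assigned to a gene, and TPM divides it by transcript length and scales the library to a fixed total. CPM is the expected count scaled to a total of 1e+06 per library, and with a count of 0 a level of up to 0.222 CPM in replicate 1 and 0.167 CPM in replicate 2 is possible (3 counts). All 7 macrophage markers were detected in both libraries, at 33.0 to 1708 TPM, with Lyz2, the gene of lysozyme, the highest. None of 7 progenitor, 4 erythroid, 5 lymphoid or 4 fibroblast markers reached 1 TPM in both libraries. The highest of each by mean were Kit at 2.56 and 0.60 TPM, Klf1 at 0.11 and 0.03, Ms4a1 at 0.34 and 0.02, and Dcn at 2.71 and 0.00 in replicates 1 and 2. The summed level of the progenitor markers, which come from cells that divide, was 11.0 CPM in replicate 1 and 4.85 CPM in replicate 2, and their part in the results below was not tested. In bulk RNA, fewer cells that express a gene and less RNA per cell cannot be told apart.

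Of the 41 genes, 28 were detected, with at least 1 TPM in both libraries, and 44.5% of all protein-coding genes were. By group, 13 of the 15 S-phase genes, 11 of the 21 G2/M genes and 4 of the 5 D-type cyclins and inhibitors passed that level. Only Cdkn1a, Pcna, Cdkn1b and Kif23 exceeded 10 TPM in both libraries, and 7 genes stayed under 1 TPM in both. The median of log2(TPM + 1) over all 41 was 1.67 in replicate 1 and 1.12 in replicate 2, beside 0.82 and 0.52 over all protein-coding genes and 3.63 and 3.16 over the detected ones. Their median thus lay above that of all protein-coding genes and below that of the genes in use. The 41 genes together took 0.103% and 0.124% of all expected counts, and 54.2% and 60.9% of that fell on Cdkn1a.

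**Figure D1:**
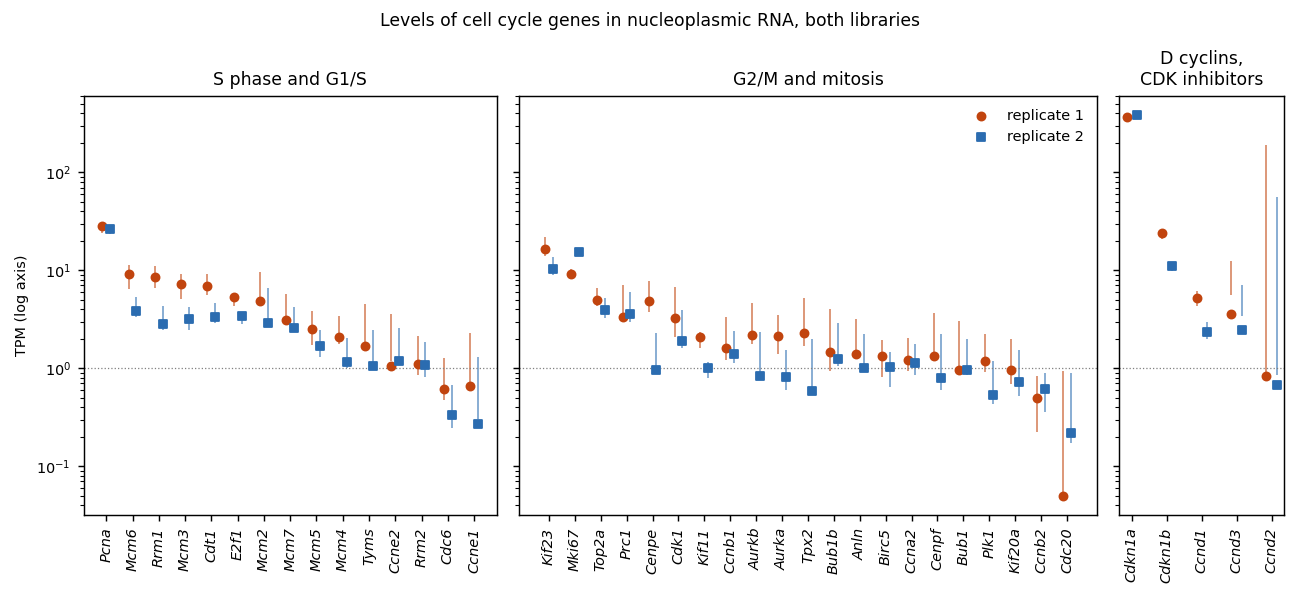
TPM of each of the 41 genes in replicate 1 (circles) and replicate 2 (squares) on a log axis, ordered by mean within each group, with vertical lines for the interval bounds of TPM deposited by the authors and a dotted line at 1 TPM. Cdkn1a stands at 364 and 388 TPM while most other genes lie between 0.2 and 10 TPM.

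By their median, S-phase genes stood higher than G2/M genes in both libraries. Their median of log2(TPM + 1) was 2.04 in replicate 1 and 1.83 in replicate 2, against 1.39 and 1.00 for the G2/M genes. The difference of these medians was 0.65 in replicate 1 and 0.83 in replicate 2, with a mean of 0.74 ± 0.13 (SD, n = 2). It had the same sign in both libraries and was larger than its spread between them. As untransformed medians, S-phase genes had 3.10 and 2.55 TPM and G2/M genes had 1.62 and 1.00 TPM. The groups overlapped: 11 and 13 of the 15 S-phase genes lay above the G2/M median, and 6 and 4 of the 21 G2/M genes lay above the S-phase median. The difference of medians or means kept its sign in all the alternatives tried. It fell to 0.41 in the alignment-free table, where transcripts were quantified without an alignment, and to 0.47 with means in place of medians. Summed CPM went the other way, at 142 and 120 for the S-phase genes and 210 and 288 for the G2/M genes. Without Mki67 the G2/M sum was 118 and 91.7 CPM.

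**Figure D2:**
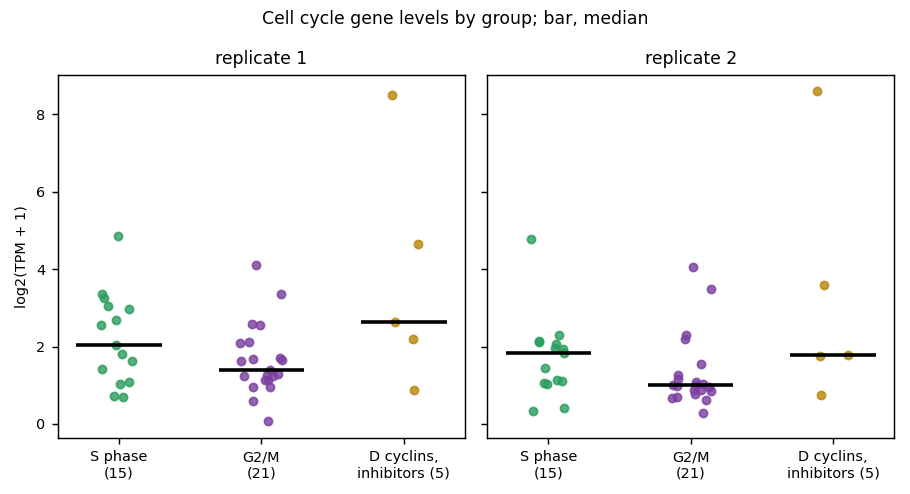
Each point is a gene, plotted as log2(TPM + 1) in replicate 1 (left) and replicate 2 (right), with a bar at the median of its group. The S-phase bar stands above the G2/M bar in both libraries, at 2.04 against 1.39 and at 1.83 against 1.00, and the point near 8.5 is Cdkn1a.

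The groups also differed in the letters of their promoters. Such elements are known for genes of these groups, as described above, so this is a trait of the list and not a result of these libraries. Whether the letters go with the levels was not tested. RefSeq promoter windows of assembly GRCm38.p6, which run over 250 bases before to 50 bases after the start of a gene, were matched by symbol for 33 of the 41 genes, 13 of S phase, 17 of G2/M and 3 of the D-type cyclins and inhibitors. E2F-like letters were either TTCCCGC, or a form with TTGGCGC, or a form with TTCGCGC, or a form with TTGCCGC, on either strand and with overlaps allowed. They were found in 8 of 13 S-phase genes (61.5%), 3 of 17 G2/M genes (17.6%) and 10.9% of the 27025 genes with a window. CHR letters (TTTGAA or TTCGAA, on either strand) were found in 2 of 13 S-phase genes (15.4%), 14 of 17 G2/M genes (82.4%) and 21.7% of all genes. CCAAT, on either strand, was in 8 of 13 S-phase genes (61.5%), 15 of 17 G2/M genes (88.2%) and 41.1% of all genes. A gene counted when any of its windows matched, and 4 of the members had 2 windows. The windows of Cdkn1a, Cdkn1b and Ccnd3 held neither E2F-like nor CHR letters. Among detected protein-coding genes the shares were 20.1% for E2F-like letters, 16.4% for CHR letters and 42.8% for CCAAT. A match is a run of letters and not a measured binding site.

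The stretches below run over 170 bases before to 30 bases after the start, 5′ to 3′ along the gene, for the 3 S-phase and the 3 G2/M genes with the most whole matches inside it (ties by name), E2F-like letters in the S-phase genes and CHR letters in the G2/M genes. They show how matches lie in single promoters, and since the genes were picked for their matches, the shares above and not these stretches compare the groups. Capitals mark both kinds of letters in all 6 stretches. The S-phase genes held no whole CHR match here. Mcm6, Mcm5 and Mcm7 encode subunits of the ring that unwinds DNA at the replication fork. Their places are Mcm6 chr1:128359676-128359875 on the minus strand, Mcm5 chr8:75109339-75109538 on the plus strand and Mcm7 chr5:138171854-138172053 on the minus strand.
Mcm6: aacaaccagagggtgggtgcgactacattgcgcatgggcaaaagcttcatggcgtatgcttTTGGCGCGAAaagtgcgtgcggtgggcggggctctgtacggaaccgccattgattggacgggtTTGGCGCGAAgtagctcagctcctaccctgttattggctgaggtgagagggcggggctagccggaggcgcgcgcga
Mcm5: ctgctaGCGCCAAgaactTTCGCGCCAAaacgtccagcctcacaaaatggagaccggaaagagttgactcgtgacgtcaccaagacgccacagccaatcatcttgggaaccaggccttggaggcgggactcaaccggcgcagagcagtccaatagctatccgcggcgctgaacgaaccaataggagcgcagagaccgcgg
Mcm7: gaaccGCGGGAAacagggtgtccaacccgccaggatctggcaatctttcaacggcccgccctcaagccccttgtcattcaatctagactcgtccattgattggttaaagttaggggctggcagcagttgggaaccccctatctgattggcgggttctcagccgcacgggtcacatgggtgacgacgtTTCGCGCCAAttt
Mcm6 held 4 matches in this stretch in 2 runs where a match on each strand overlaps, and Mcm5 and Mcm7 held 3 each.

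The G2/M genes held CHR letters, and Cdk1 also an E2F-like match, TTCGCGC. Top2a encodes the topoisomerase that untangles sister chromatids, Ccnb2 a B-type cyclin, and Cdk1 the kinase that B-type cyclins activate at mitosis. Their places are Top2a chr11:99024160-99024359 on the minus strand, Ccnb2 chr9:70421525-70421724 on the minus strand and Cdk1 chr10:69352883-69353082 on the minus strand.
Top2a: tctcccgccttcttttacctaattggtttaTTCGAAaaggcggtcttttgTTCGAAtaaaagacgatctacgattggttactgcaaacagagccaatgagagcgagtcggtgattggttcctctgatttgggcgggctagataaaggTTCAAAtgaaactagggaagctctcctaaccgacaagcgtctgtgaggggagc
Ccnb2: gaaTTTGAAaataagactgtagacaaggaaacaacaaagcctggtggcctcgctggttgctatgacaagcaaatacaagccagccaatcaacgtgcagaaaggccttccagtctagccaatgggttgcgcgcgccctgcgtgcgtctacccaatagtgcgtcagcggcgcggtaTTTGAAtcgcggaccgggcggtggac
Cdk1: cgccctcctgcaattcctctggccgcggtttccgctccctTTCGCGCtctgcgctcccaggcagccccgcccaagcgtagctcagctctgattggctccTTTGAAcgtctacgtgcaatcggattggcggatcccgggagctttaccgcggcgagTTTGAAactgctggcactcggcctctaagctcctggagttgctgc
Top2a held 3 CHR matches in this stretch, and Ccnb2 and Cdk1 held 2 each. Their levels differed: Top2a had 4.99 and 3.95 TPM in replicates 1 and 2, Cdk1 had 3.23 and 1.92 TPM, and Ccnb2 had 0.50 and 0.61 TPM.

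**Figure D3:**
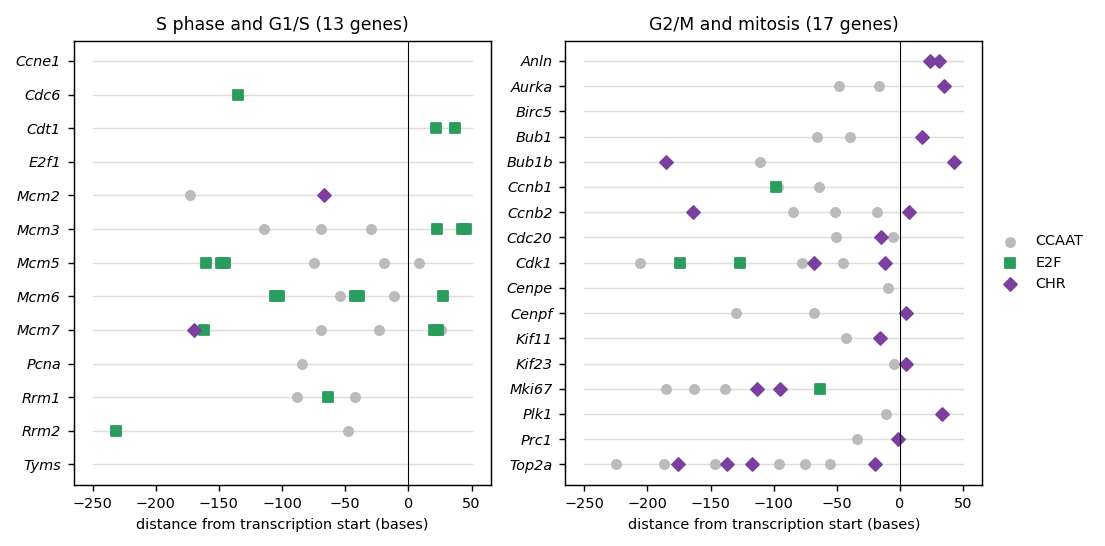
Distance in bases of each match from the start of the gene, in the first window of each of the 13 S-phase genes (left) and 17 G2/M genes (right). Squares are E2F-like letters, diamonds CHR letters and grey circles CCAAT. E2F-like matches fall in 8 of 13 S-phase genes and 3 of 17 G2/M genes, and CHR matches in 2 of 13 and 14 of 17.

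Among the S-phase genes, the 6 helicase genes were all detected and had a median of 3.99 TPM in replicate 1 and 2.72 TPM in replicate 2. Mcm6 was the highest, at 9.17 TPM in replicate 1 and 3.88 TPM in replicate 2, followed by Mcm3 at 7.22 and 3.15 TPM and Mcm2 at 4.88 and 2.89 TPM. Mcm7 had 3.10 and 2.55 TPM, Mcm5 2.52 and 1.70 TPM, and Mcm4 2.10 and 1.15 TPM. The protein products form a ring with a single copy of each, while the highest of the 6 exceeded the lowest by 4.37-fold in replicate 1 and 3.37-fold in replicate 2. The order of these 6 genes by TPM was the same in both libraries, but rested in part on few reads over short models. In replicate 1, 19.9 counts on Mcm3-205, of 607 bases, gave 3.71 TPM. Likewise 16.7 counts on Mcm6-204, of 588 bases, gave 3.27 TPM. By counts Mcm2, with 165 and 181, exceeded Mcm3, with 150 and 138. By counts, Mcm6 had 243 and 238, and Mcm5, the lowest in counts, had 53 and 78.

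Pcna, which encodes the sliding clamp that holds DNA polymerase on its template, was the highest of the 15, with 28.18 TPM in replicate 1 and 26.44 TPM in replicate 2. It was the second of all 41 genes. Rrm1, the large subunit of ribonucleotide reductase, had 8.46 and 2.85 TPM, and Rrm2, its small subunit that is made in S phase, had 1.10 and 1.07 TPM. Rrm1 was thus above Rrm2 in both libraries, and their difference was larger in replicate 1. Tyms, thymidylate synthase, which makes the precursor of thymidine nucleotides, had 1.67 and 1.06 TPM.

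The genes that open S phase ran over a wide range. E2f1, a transcription factor of the G1/S step, had 5.38 TPM in replicate 1 and 3.42 TPM in replicate 2, and Cdt1, which loads the helicase onto origins, had 6.90 and 3.30 TPM. Cdc6, its partner in loading, had only 0.62 and 0.33 TPM. The cyclins E that activate Cdk2 were near or under 1 TPM: Ccne2 had 1.05 and 1.18 TPM, and Ccne1 had 0.66 and 0.27 TPM from 16 and 8 counts. Cdc6 and Ccne1 were the S-phase genes that missed the detection level.

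Among the G2/M genes, Mki67 and Kif23 stood apart from the other 19. Mki67, which encodes the Ki-67 protein that coats mitotic chromosomes and is the usual mark of dividing cells, had 9.19 TPM in replicate 1 and 15.53 TPM in replicate 2. Its 1238 and 3520 expected counts were 43.7% and 68.2% of all counts on the 21 genes. Kif23, the motor of the central spindle, had 16.33 and 10.21 TPM from 369 and 345 counts. The long protein-coding transcript Kif23-201 held 214 and 158 of these counts but 4.92 and 2.14 of the TPM, and the rest of the TPM lay on shorter transcripts of this gene.

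The other spindle and cytokinesis genes were lower. Prc1, which bundles microtubules in the spindle midzone, had 3.34 TPM in replicate 1 and 3.60 TPM in replicate 2, and Kif11, the motor that pushes spindle poles apart, had 2.08 and 1.00 TPM. Tpx2, the activator of Aurora A, had 2.27 and 0.59 TPM, Anln, which links actin to the cleavage furrow, had 1.40 and 1.01 TPM, and Kif20a, another motor of the midzone, had 0.95 and 0.72 TPM. Of the 6 genes in this set, with Kif23, 4 were detected.

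Genes of the mitotic kinases and cyclins had a median of 1.42 TPM in replicate 1 and 0.97 TPM in replicate 2 over 6 members. Cdk1 was the highest of them. Ccnb1, the main B-type cyclin, had 1.62 and 1.41 TPM, and Ccna2, cyclin A of S phase and G2, had 1.21 and 1.12 TPM. Aurka, which matures the spindle poles, had 2.13 and 0.82 TPM, and Plk1, a kinase with tasks throughout mitosis, had 1.18 and 0.54 TPM. Each thus passed 1 TPM in replicate 1 only, but from few reads, 26 and 24 counts for Aurka and 32 and 25 for Plk1. In replicate 1, 4.38 counts on Aurka-204, of 672 bases, gave 0.70 TPM, and 3.19 on Aurka-205, of 596 bases, gave 0.61 TPM.

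Genes of the kinetochore, the passenger complex and the spindle checkpoint were the least detected, with 2 of 7 at 1 TPM or more in both libraries. Those were Bub1b, a checkpoint protein, at 1.46 TPM in replicate 1 and 1.25 TPM in replicate 2, and Birc5 (survivin), a subunit of the passenger complex, at 1.35 and 1.03 TPM. Aurkb, the kinase of that complex, had 2.18 and 0.84 TPM from 20 and 24 counts. In replicate 1, 4.35 counts on Aurkb-204, of 615 bases, gave 0.80 TPM, and 4.61 on Aurkb-207, of 661 bases, gave 0.76 TPM. Cenpf, a large kinetochore protein, had 1.34 and 0.79 TPM, and Bub1, a checkpoint kinase, had 0.95 TPM in each library. Cdc20, which activates the ubiquitin ligase that starts anaphase, was the lowest of the 41 genes, with 0.05 and 0.22 TPM from 1 and 8 counts. Cenpe, a kinetochore motor, differed most between the libraries by TPM, though its counts were 181 and 172, and is described with the ratios below.

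The D-type cyclins and CDK inhibitors were a group of unlike genes. Cdkn1a, which encodes p21 and lies at chr17:29090976-29100727 of mm10 on the plus strand, had 364.03 TPM in replicate 1 and 387.94 TPM in replicate 2. It ranked 69 among the 22028 protein-coding genes by mean TPM and was 12.9 and 14.7 times the next gene of the 41. Cdkn1b, which encodes p27, had 24.08 and 11.08 TPM. Among the cyclins, Ccnd1 had 5.25 and 2.36 TPM, Ccnd3 had 3.58 and 2.45 TPM, and Ccnd2 had 0.83 and 0.67 TPM. Cdkn1a was above every other gene of the list by more than any spread between the libraries. The TPM of Ccnd2 and of Ccnd3 lay below the deposited interval in both libraries. The interval of Ccnd2 ran over 0.90 to 189 TPM in replicate 1 and 0.86 to 55.8 TPM in replicate 2, so its TPM was poorly fixed. That of Ccnd3 ran over 5.65 to 12.3 TPM in replicate 1 and 3.45 to 7.12 TPM in replicate 2.

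Counts of Cdkn1a fell mainly on 3 protein-coding transcripts. Cdkn1a-201 held 5759 and 9298 expected counts, Cdkn1a-203 held 1155 and 2605, and Cdkn1a-205 held 607 and 1530. None of its 5 transcripts is annotated with a retained intron. A gene of unknown coding status on the opposite strand, AC167363.2, shares 273 exonic bases with it and was given 2081 and 4238 counts, 27.5% and 31.4% of the count of Cdkn1a. No source used here states whether strand was used in counting. In replicate 1 the counts were 7561.89 for Cdkn1a and 2081.11 for AC167363.2, and their fractions add to a whole number. Reads were thus divided between both genes despite their opposite strands, and how many belong to each is not known. The TPM of Cdkn1a also lay above its deposited interval in both libraries, 327 to 343 TPM in replicate 1 and 363 to 376 TPM in replicate 2.

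Of the 41 genes, 12 share exonic bases with another gene, 11 of them with a gene on the opposite strand and 2 with small RNA genes on the same strand, Mcm7 being in both counts. For 11 genes the expected count was not whole within 0.01 in some library, so reads were split with other genes. Of these, Pcna and Ccnb1 share no exonic base with another gene, and the other 9 do. They include Kif20a, whose opposite-strand neighbour Cdc23 shares 1271 exonic bases and had 275 and 287 counts beside the 28.2 and 35.1 of Kif20a. The count of Ccne2 was 39.4 and 66.0 beside 568 and 709 for Ints8 on the other strand. Shares of overlap and of split counts over all genes are not given, so whether this list stands out in them was not tested. Of the 28 detected genes, 21 (75.0%) had a TPM inside their own deposited interval in both libraries, and 85.2% of all detected protein-coding genes did.

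Between the libraries, the members kept close to other genes, with Mki67 as the main exception. TPM + 1 was higher in replicate 1 than in replicate 2 by a median log2 ratio of 0.42 over the 14584 genes with at least 10 counts in both, and ratios are given relative to that median. Of the 41 genes, 38 reached this count, and Ccnb2, Cdc20 and Ccne1 did not. Their median ratio was −0.04, with 0.03 for the S-phase genes and −0.15 for the G2/M genes. By a ratio over 2-fold, 1 gene, Cenpe, was higher in replicate 1, as 0.487% of all genes tested were, and 1 gene, Mki67, was lower, as 1.22% of all genes were. In CPM no member was over 2-fold higher (background 2.04%), and Mki67 was lower (background 3.05%).

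Mki67 had 91.7 CPM in replicate 1 and 196 CPM in replicate 2, a ratio of 0.47 with a 95% counting interval of 0.44 to 0.50. Its log2 ratio relative to all genes was −1.12 in TPM + 1 and −1.32 in CPM. The alignment-free table gave 83.2 and 170.2 CPM, but its TPM was 8.88 in replicate 1 and 5.03 in replicate 2. Mitochondrial genes and genes under 200 bases took 31.8% and 76.0% of all TPM there. Relative to all genes the log2 ratio of Mki67 was −0.48 in the TPM of that table. In the TPM + 1 of the gene table with no count minimum it was −0.95, and both values were short of 2-fold. The other 20 G2/M genes together had 118 CPM in replicate 1 and 91.7 CPM in replicate 2, so that Mki67 ran against their sum. All counts of Mki67 in the gene table lay on the transcript Mki67-201, of 10061 bases. Bub1b went the same way as Mki67 by CPM, with a ratio of 0.61 and an interval of 0.40 to 0.90, and Cdkn1a did too, at 0.74 with an interval of 0.72 to 0.77. These 3 were the only members with an interval wholly below 1, while 14 members had one wholly above 1. Over all genes the median log2 ratio in CPM was 0.22, and the intervals were set against a ratio of 1 and not against that median. The same counts of intervals over all genes were not made, so whether the members stand out in them was not tested. These intervals cover counting error only and do not hold the spread between cultures.

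Cenpe had 4.92 TPM in replicate 1 and 0.97 TPM in replicate 2, while its counts were 181 and 172. Its log2 ratio relative to all genes was 1.16 in TPM + 1 and 0.27 in CPM. The long transcript Cenpe-201 held 168 and 172 counts, which gave 1.59 and 0.97 TPM. In replicate 1, 10.2 counts on Cenpe-204, a retained-intron fragment of 532 bases, gave 2.35 TPM, and 3 counts on Cenpe-205, of 440 bases, gave 0.97 TPM. Neither fragment had a count in replicate 2, so the TPM of Cenpe in replicate 1 rested mostly on few reads over short models. Rrm1 had a like gap, with log2 ratios of 0.87 in TPM + 1 and 0.32 in CPM.

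**Figure D4:**
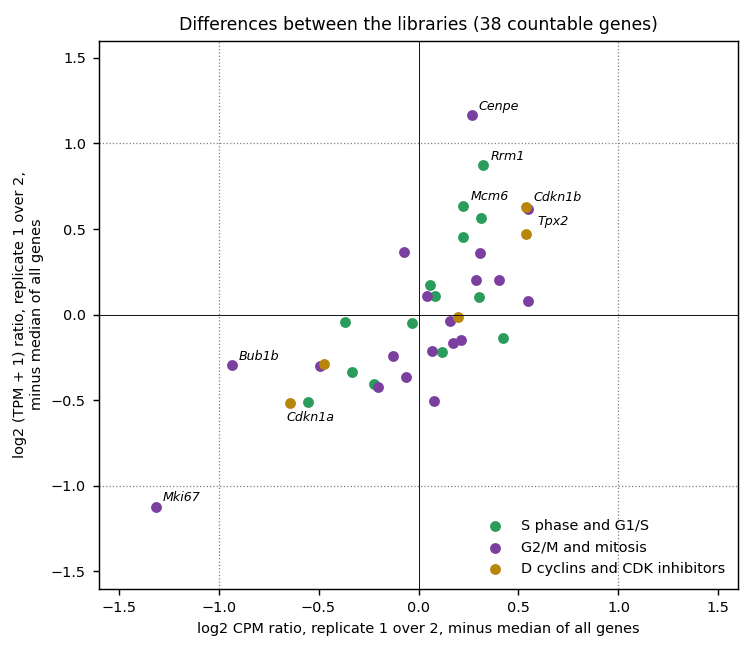
Log2 ratio of replicate 1 over replicate 2 for the 38 countable genes (10 counts or more in each library), by CPM (x axis) and by TPM + 1 (y axis), each minus the median of all genes, with dotted lines at a 2-fold difference. Mki67 lies past 2-fold on both axes, at −1.32 and −1.12, and Cenpe on the TPM axis only.

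The annotation marks as retained intron those transcripts of a gene that keep an intron which its coding transcripts lack. Such transcripts took 4.52% of the counts of the 41 genes in replicate 1 and 2.84% in replicate 2, beside 15.1% and 16.0% over all protein-coding genes. That pooled share is set by Cdkn1a, which has no such transcript and holds at least 54.2% of the counts. By group the share was 12.9% ± 0.43 for S-phase genes, 8.08% ± 3.58 for G2/M genes and 0.66% ± 0.25 for the D-type cyclins and inhibitors (SD, n = 2 each). Mki67 has no such transcript either, and without it the share of the other G2/M genes was 18.9% in replicate 1 and 17.4% in replicate 2, so that the order against the S-phase genes reversed. Over the 29 countable members that have such a transcript, the median of the gene shares was 14.4%, beside 17.4% over all such protein-coding genes.

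Single members differed widely in this share. Prc1 had 68.6% of its counts on retained-intron transcripts in replicate 1 and 72.4% in replicate 2, Ccnd3 had 54.1% and 49.5%, and Ccnb1 had 44.3% and 36.3%. Prc1 shares 911 exonic bases with Rccd1 on the opposite strand, which had 168 and 187 counts beside its own 107 and 116. Tyms had 36.5% and 36.6%, and Kif23 had 33.0% and 39.3%. The pooled counts of the 6 spindle and cytokinesis genes had 31.3% and 33.9%, above the pooled share over all protein-coding genes in both libraries. Kif23 and Prc1 weigh most in that pool. The median of the gene shares in this set was 17.7%, beside 17.4% over all such protein-coding genes. Cdc6, Kif20a and Cdc20 have such a transcript with no count on it.

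**Figure D5:**
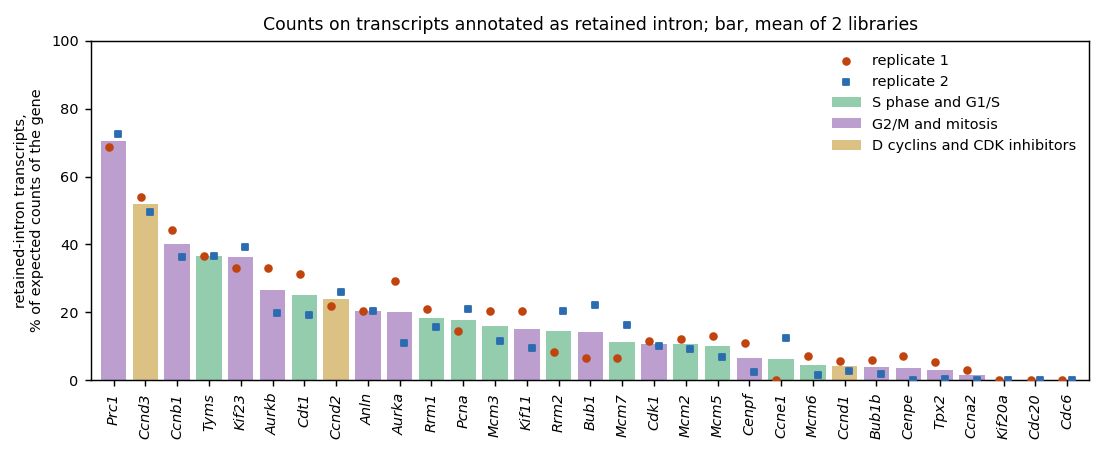
Percent of the expected counts of each gene that lay on transcripts annotated as retained intron, for the 31 of 41 genes with such a transcript, with bars for the mean, circles for replicate 1 and squares for replicate 2. Prc1 is the highest, at 68.6% and 72.4%.

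The alignment-free table, with 25317223 and 26308342 counts, could be compared with the gene table for 38 members in both libraries. Birc5, Tyms, Anln and Rrm1 were over 2-fold higher there than in the gene table in both libraries, 4 of the 38, while 5.57% of 11359 protein-coding genes were. Tyms had 595 and 450 alignment-free counts beside 53 and 62 expected counts. Its full protein-coding transcript Tyms-201 held 396 and 309 alignment-free counts and none in the gene table, where Tyms-204, annotated as a target of nonsense-mediated decay, held 30.9 and 37.0. Birc5 had 347 and 263 beside 33 and 36, and most of the excess lay on Birc5-202, of 3334 bases, with 334 and 257. The level of these 4 genes therefore depends on the table, by log2 differences of 2.49 and 2.31 for Birc5, 2.58 and 2.31 for Tyms, 1.23 and 1.13 for Anln, and 1.11 and 1.00 for Rrm1. In the gene table, the transcript with the most counts was the same in both libraries for 33 of 41 genes and protein-coding in both for 38. It was the same in both libraries and both tables for 25. Such shares over all genes are not given here.

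Further genes of the same pathways, from lists that cover the rest of each process, stood at similar levels. Of 42 other replication genes 34 were detected, with a median log2(TPM + 1) of 1.91 ± 0.29 (SD, n = 2), next to 1.93 ± 0.15 for the S-phase members. Of 40 other mitosis genes 20 were detected, with 1.15 ± 0.35, next to 1.19 ± 0.28 for the G2/M members. The highest other replication gene was Rfc2, a subunit of the clamp loader, at 59.2 and 42.8 TPM in replicates 1 and 2. Orc4 at 52.0 and 28.2 TPM and Orc3 at 46.1 and 31.4 TPM, both subunits of the origin recognition complex, came next. Of the counts of Rfc2, 56.2% and 65.1% lay on retained-intron transcripts. Protein-coding transcripts held 30.6% and 53.5% of the counts of Orc4 and 21.2% and 27.4% of those of Orc3. Gins3, of the helicase complex, was among the lowest, at 1.15 and 0.46 TPM. Among those with a window, E2F-like letters were in 21 of 34 other replication genes (61.8%) and in 7 of 33 other mitosis genes (21.2%). CHR letters were in 7 of 34 (20.6%) and 21 of 33 (63.6%).

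Among the other mitosis genes, Cenpa, the histone variant of centromeres, was the highest, at 134 TPM in replicate 1 and 78.3 TPM in replicate 2. Of its 4085 and 3728 counts, 89.1% and 84.0% lay on retained-intron transcripts. Smc4, of condensin, had 24.1 and 15.3 TPM and Incenp, of the passenger complex, had 24.1 and 14.4 TPM. The lowest were Melk, a kinase, at 0.27 and 0.16 TPM and Spc24, of the kinetochore, at 0.25 and 0.10 TPM.

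Of 31 other genes of G1 control 25 were detected. The partners of the D-type cyclins were high, with Cdk6 at 55.9 TPM in replicate 1 and 49.5 TPM in replicate 2 and Cdk4 at 38.3 and 18.0 TPM, and so was Rb1, the retinoblastoma protein they phosphorylate, at 44.1 and 35.5 TPM. The lowest were the inhibitor genes Cdkn2b, at 0.44 and 0.54 TPM, and Cdkn2a, at 0.22 and 0.00 TPM. Since Cdkn1a is a textbook target of p53, 14 other genes of the p53 pathway were read beside it, and 12 were detected, with a median log2(TPM + 1) of 3.66 ± 0.40. Plk2 had 267 and 211 TPM, Mdm2, the ligase that degrades p53, had 126 and 143 TPM, and Bax, a promoter of apoptosis, had 47.2 and 48.6 TPM. Eda2r, at 0.03 and 0.13 TPM, and Perp, at 0.08 and 0.00 TPM, were the lowest. These are levels in treated cells, as above.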

How the data were processed

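Both libraries were ribosomal RNA-depleted total RNA-seq of 1 group. Expected counts and TPM per gene and transcript, with interval bounds of TPM, are the authors' values from reads aligned to transcripts, and estimated counts of the alignment-free table are theirs from reads and an index, per the deposited readme (mm10, GENCODE M21). No source used here names the quantifiers. Gene types, coordinates and overlaps came from GENCODE M21, and promoters from RefSeq. CPM was the expected count scaled to a total of 1e+06 on annotated genes. Levels used log2(TPM + 1). Ratios of replicate 1 over replicate 2 used genes with at least 10 counts in both, minus the median of all, and a call meant over 2-fold. A like call on ratios of simulated counts, scaled by library total, was tested. That test does not cover the TPM + 1 ratio used here. Intervals are exact 95% binomial ones. For TMM (edgeR 4.0.16) and DESeq2 1.42.0 size factors, counts were rounded. Tables and figures used pandas 2.3.3, numpy 2.4.6, scipy 1.17.1 and matplotlib 3.10.9.

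Named genes are all 41 members, the 3 highest and 2 lowest by mean TPM of each companion list, and the highest of each marker list. Of these, 1 companion gene is not reported here. The members and lists were chosen with earlier results of these data known. Neighbours of members, and the promoters printed, were chosen after their values were seen. Alternatives were other pseudocounts, minimums, scalings, tables and each library alone.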

Additional observations from a re-analysis of the deposited data

How the results depend on the processing

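The higher median or mean level of S-phase than of G2/M genes kept its sign under every alternative run. By summed CPM, where Mki67 weighs most, the G2/M genes were higher in both libraries. The difference in log2 medians was 0.74 and became 1.08 with a pseudocount of 0.1 TPM, 0.41 in the alignment-free table, 0.47 with means and 0.87 in CPM. The S-phase level was 1.54 with that pseudocount, 2.34 with TPM rescaled without mitochondrial genes and genes under 200 bases, 1.27 in the alignment-free table and 2.09 in that table rescaled, 2.81 in CPM, 2.09 with at least 10 counts and 1.64 on protein-coding transcripts. The G2/M level was 0.46, 1.51 and 0.86 under the first 3 of these, 1.49 as a mean and 1.94 in CPM. The level of D-type cyclins and inhibitors was 1.27 in the alignment-free table, 3.53 as a mean and 3.86 in CPM. Detected members numbered 5 at 5 TPM and 11 in the alignment-free table, where mitochondrial and short genes took 31.8% and 76.0% of TPM. Members over 2-fold higher in replicate 1 numbered 0 under TMM, DESeq2 scaling, CPM and the alignment-free table, 2 with no count minimum and 3 with a pseudocount of 0.1 TPM. Those lower numbered 0 with no count minimum and in the alignment-free table. The retained-intron share was 7.13% as a median of genes and 8.02% in the alignment-free table. The alignment-free rescaling, protein-coding transcripts, the CPM ratio and the retained-intron share without Mki67 were chosen after seeing the data. Single libraries gave 1.83 to 2.04 for S phase, 1.00 to 1.39 for G2/M, 1.79 to 2.64 for D-type cyclins and inhibitors, 0.65 to 0.83 for the difference, 28 to 34 detected members and 2.84% to 4.52% retained intron. No paired analysis was possible because both libraries belong to the same group. Depth limits Cdc20, Ccne1 and Ccnb2, which had under 10 counts in a library.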

Other observations

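Of the further cell cycle genes that reached 10 counts in each library of the gene table, 3 had over 4-fold more counts for their depth in the alignment-free table in both libraries, and were chosen here after their values were seen. E2f7, a repressor of the E2F family, had 854 and 652 alignment-free counts beside 39 and 24 expected counts. Hmmr, a spindle protein, had 362 and 282 beside 29 and 18, and Kif18a, a motor that limits chromosome movement, had 153 and 193 beside 16 and 18. In TPM of the alignment-free table E2f7 had 14.3 and 4.23, Hmmr had 2.30 and 0.56, and Kif18a had 0.65 and 0.24.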
